A study of Mus musculus with 9 samples.

Results

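The first 2.5 h of transcription arrest in C2C12 cells were described from 6 of the 9 arrays of the series. The members are the 3 arrays harvested at 2.5 h of actinomycin D and the 3 harvested at 0 h, and each 2.5 h array was set against the 0 h array of the same siRNA. The 2.5 h arrays held total RNA of cells given control siRNA, Cugbp1 siRNA or Mbnl1 siRNA and then 5 ug/ml actinomycin D for 2.5 h, and the 0 h arrays held RNA of cells given the same 3 siRNAs and harvested at the time of addition. C2C12 is an established line of mouse myoblasts, here grown in medium with serum. Cugbp1 (current symbol Celf1) and Mbnl1 encode RNA-binding proteins, and the study asked how mRNA decay depends on them. There was 1 array for each siRNA and time, and the labels do not say that arrays came from separate cultures. A p-value therefore measures a change against the variation of siRNA by time that the model leaves over, which may be technical.

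Actinomycin D intercalates into DNA and blocks elongation by RNA polymerases, so that an mRNA is no longer replaced and its level follows its decay. In mammalian cells, the mRNAs with the fastest turnover are those of inducible transcription factors, signalling inhibitors and cytokines, many of which carry AU-rich elements that recruit the deadenylation machinery. Histone mRNAs of the replication type lack a poly(A) tail, end in a stem-loop, and are degraded when DNA synthesis stops. mRNAs of the ribosome, the respiratory chain, the cytoskeleton and the extracellular matrix are known as long-lived.

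Array medians lay between 104.92 and 113.01 on the linear intensity scale, and the correlation between pairs of the 6 arrays over the tested genes between 0.9458 and 0.9931. All 7 myoblast markers with a probe set (Myod1, Myf5, Cdh15, Des, Vim, Met and Itga7) passed the intensity filter, with an average log2 level of 11.64 to 11.80 per array at 2.5 h and 11.74 to 11.94 at 0 h. Of the markers of other cells, 2 of 9 for adipocytes, 3 of 9 for osteoblasts and chondrocytes, 2 of 8 for fibroblasts and 2 of 9 for macrophages and leukocytes passed. Averaged over all markers of a type with a probe set, passed or not, log2 levels were between 6.19 and 7.02 per array at 2.5 h. At 0 h they were between 6.17 and 7.04. The single markers that passed were brighter, with means over the 9 arrays from 7.47 for Sost to 10.62 for Sox9. Those of the myoblast markers ran from 9.49 for Myf5 to 14.11 for Vim. The knockdowns were in place at 2.5 h: Celf1 was at log2 9.57 under Cugbp1 siRNA and 11.74 under control siRNA, and Mbnl1 at 10.05 under Mbnl1 siRNA and 12.50 under control siRNA. In RNA from whole cultures, fewer cells with a transcript and less of it per cell cannot be told apart.

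Within 2.5 h a minority of transcripts had collapsed, while most moved little against the rest of the array. Of 9864 tested genes, 2391 (24.2%) were lower at 2.5 h than at 0 h and 2283 (23.1%) were higher, together 47.4% (limma, Benjamini-Hochberg adjusted p under 0.05). The 2 sides differed in size. The median called fall was −0.37 on the log2 scale and the median called rise 0.18, and 234 genes (2.37%) fell by more than 1, which is more than a 2-fold loss, against 3 genes (0.0304%) that rose by as much. Falls passed 1.5 for 66 genes, 2 for 21 and 3 for 5. In 1757 genes (17.8%) all 3 arrays at 2.5 h lay below all 3 at 0 h, and in 1241 (12.6%) above them. The direction was the same under all 3 siRNAs in 4665 of the 4674 called genes. Each estimate is the mean of these 3 differences, so a call favours such agreement. The arrays at 5 h also entered the intensity filter and the estimate of spread behind each call.

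**Figure D1:**
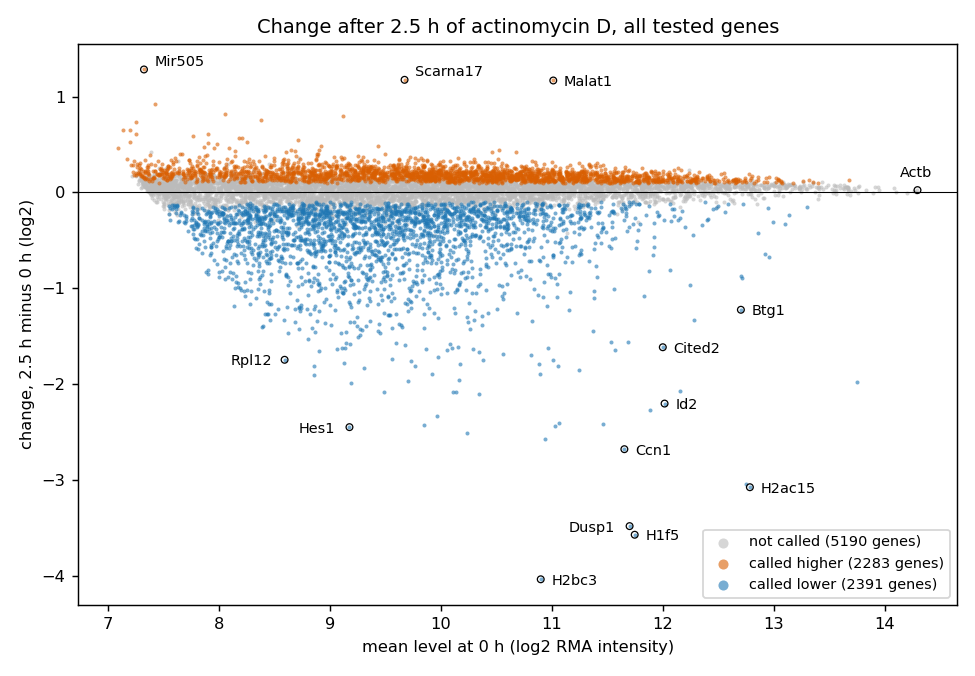
Each point is 1 of the 9864 tested genes, placed by its mean log2 RMA intensity at 0 h (x) and its mean change over the 3 siRNAs, 2.5 h minus 0 h (y, log2). Called falls (blue) reach −4.04 at H2bc3, called rises (orange) mostly stay under 0.5, and genes in grey did not pass the test.

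RMA gives all arrays a common distribution, so a change is relative to the other transcripts and the count of rises depends on the scale. The median change of all genes was 0.03, and −0.08 after shifting the arrays so that cytosolic ribosomal protein genes had equal medians. Under that scaling 147 genes were called higher and 3135 lower, so that rises made up 4.48% of called genes in place of 48.8%. Falls of more than 1 then numbered 315. The 234 genes that fell by more than 1 without that shift had a median level at 0 h of 9.56 (log2), close to the 9.65 of all tested genes. Of the 234, 62 belong to a gene list described below, 18 are other Zfp genes and 154 are in neither. Counts in the lists below stand against 24.2% lower and 23.1% higher among all tested genes.

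Histone mRNAs showed the deepest losses. Of 31 histone genes on the array 16 were tested, and 15 fell and 0 rose, with a median of −2.03 against 0.03 for all tested genes. Of these, 12 fell by more than 1, and 7 of the 15 largest falls of all genes were histones. Histone genes are so alike in sequence that probes may read several of them, which makes each one's value uncertain.

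H2bc3, a core histone H2B gene, had log2 levels of 6.98, 6.88 and 6.74 at 2.5 h (control, Cugbp1 and Mbnl1 siRNA, the order used below) and of 11.17, 11.13 and 10.40 at 0 h. Its change was −4.04 ± 0.13 (SE, n = 3 arrays per time, adjusted p = 1.1e-06), a loss of at least 16.4-fold. Here and below a fold is given as "at least" where the lower mean lay under the filter value of 7.39. That value is not a detection limit, so other large folds may be bounds too. All 3 arrays at 2.5 h were dim, near the level of unexpressed genes. H1f5, a linker histone H1 gene, had 8.23, 8.33 and 7.96 at 2.5 h and 12.01, 12.03 and 11.21 at 0 h, and fell 11.9-fold (−3.57 ± 0.12, adjusted p = 1.19e-06). The H2A gene H2ac15 kept 11.8% of its 0 h level, with 9.83, 9.54 and 9.75 at 2.5 h and 12.93, 12.79 and 12.64 at 0 h. None of these groups overlapped, and the losses were of the same order under each siRNA.

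H2bc14 (−3.04), H4c6 (−2.57), H2bc18 (−2.51), H2bc9 (−2.27), H4c14 (−2.07), H4c4 (−1.98) and H1f1 (−1.97) also fell. H4c4, an H4 gene and the brightest of the histones, was at 12.28, 11.11 and 11.92 at 2.5 h and 13.89, 13.74 and 13.63 at 0 h. H2aw (−1.82) and H4f16 (−1.74) did so too. Smaller falls were called for H4c9 (−0.83, a lower bound), H2ac1 (−0.54) and H1f2 (−0.32 ± 0.10, adjusted p = 0.0267). H2bc4 was the exception, with 10.28, 11.93 and 11.47 at 2.5 h and 10.31, 11.86 and 11.44 at 0 h, a change of 0.02 ± 0.05 (adjusted p = 0.723), or −0.09 with equal ribosomal protein medians. Its level differed more between siRNAs than between times.

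**Figure D2:**
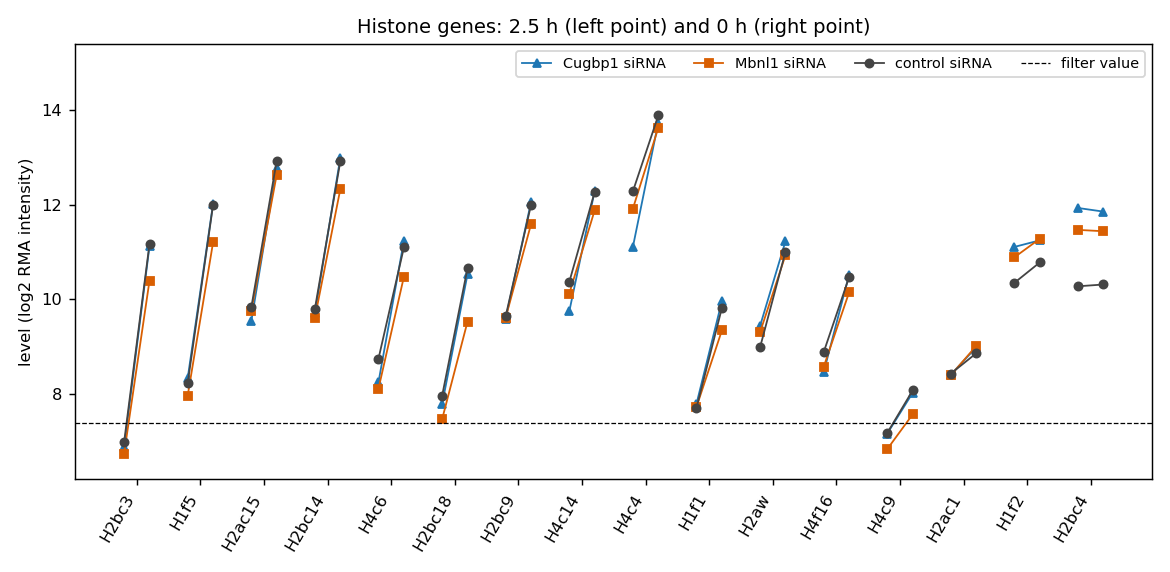
Log2 RMA intensity (y) of the 16 tested histone genes, ordered by change, in each of the 6 arrays: the left point of a line is 2.5 h and the right point 0 h, 1 line per siRNA. The lines of 15 genes slope upward to 0 h, H2bc4 is flat, and the 2.5 h points of H2bc3 and H4c9 lie under the filter value of 7.39 (dashed).

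The promoters of the 3 histone genes H2bc3, H1f5 and H2bc14 are shown for the CCAAT matches that each of them holds. TATAAA was found in H2bc3 and H1f5 only, from 10 and 28 bases before the start. Each line holds the 150 bases before the annotated start from RefSeq (GRCm38.p6), 5′ to 3′ on the strand of the gene. Capitals mark the letters TATAAA and CCAAT on either strand. The positions are chr13:23746584-23746733 (plus strand) for H2bc3, chr13:21780626-21780775 (minus strand) for H1f5 and chr13:21721894-21722043 (plus strand) for H2bc14.
H2bc3: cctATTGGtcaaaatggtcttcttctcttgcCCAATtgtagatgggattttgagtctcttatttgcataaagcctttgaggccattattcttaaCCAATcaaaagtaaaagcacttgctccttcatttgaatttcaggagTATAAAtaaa
H1f5: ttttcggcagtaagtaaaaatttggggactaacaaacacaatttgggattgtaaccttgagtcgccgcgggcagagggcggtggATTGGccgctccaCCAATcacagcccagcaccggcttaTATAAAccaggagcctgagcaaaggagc
H2bc14: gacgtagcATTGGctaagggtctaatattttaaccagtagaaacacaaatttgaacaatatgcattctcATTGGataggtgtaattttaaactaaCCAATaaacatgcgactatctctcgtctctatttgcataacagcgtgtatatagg

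CCAAT on either strand occurred within the 250 bases upstream of 11 of 14 tested histone genes with 1 annotated start (78.6%) and of 37.2% of the 6364 such genes in all. TATAAA occurred in 7 of the 14 (50%) and in 6.03% of all. A match is a stretch of letters and does not show that a factor binds there.

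The feedback inhibitors of MAP kinase signalling fell almost as a block. Of 17 tested genes, 15 fell, 0 rose and 10 fell by more than 1, with a median of −1.33. They code for dual-specificity phosphatases, which remove phosphates from MAP kinases, and for Sprouty and Spred proteins, which restrain receptor signalling upstream of Ras.

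Dusp1, the phosphatase induced with the immediate early genes, had 8.25, 7.88 and 8.52 at 2.5 h and 11.84, 11.47 and 11.79 at 0 h. It kept 8.95% of its level (−3.48 ± 0.08, n = 3 arrays per time, adjusted p = 4.71e-07). The loss was nearly as deep as that of the top histones, with no overlap of the groups. Dusp6, which acts on ERK, had 8.77, 8.98 and 9.39 at 2.5 h and 11.36, 11.40 and 11.63 at 0 h, a change of −2.42 ± 0.07. Spry2 (−1.90), Dusp10 (−1.89), Dusp4 (−1.64), Dusp5 (−1.63) and Spry4 (−1.59) followed. The slower members were Dusp7 (−0.96), Dusp14 (−0.57) and Spred1 (−0.29), so called falls within this one list ranged from 1.22-fold to 11.2-fold.

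Transcription factors of the immediate early response behaved alike. Of 35 on the array 29 were tested, 26 fell and 0 rose, 14 of them by more than 1, and the median was −0.96. Fos was below the filter and was not tested. Myc, the growth-promoting factor, had 8.42, 8.46 and 8.90 at 2.5 h and 11.02, 11.02 and 11.04 at 0 h. It was nearly equal under the 3 siRNAs before arrest and kept 18.5% of its level after it (−2.44 ± 0.10, adjusted p = 2.1e-06). Jun, an AP-1 subunit, had 9.34, 9.28 and 9.55 at 2.5 h and 11.30, 11.26 and 11.19 at 0 h (−1.86 ± 0.07). The AP-1 relatives were spread widely, with Fosl2 at −1.43, Fosl1 at −1.10, Atf3 at −0.96, Junb at −0.66 and Jund at −0.21, all called.

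Klf10 (−1.81), Snai2 (−1.66), Egr1 (−1.64), Klf6 (−1.56), Ier3 (−1.47, a lower bound on the loss), Csrnp1 (−1.45), Klf4 (−1.21) and Nr4a1 (−0.93) also fell. Srf, which drives many genes of this class, changed by −0.07 ± 0.04 (adjusted p = 0.151), and was called lower with equal ribosomal protein medians (−0.18). If a loss is read as exponential from 0 h and the rest of the array as constant, the changes correspond to half-lives of 0.718 h for Dusp1, 1.03 h for Myc, 1.35 h for Jun and 1.53 h for Egr1. None of these 4 genes was lower again in the second interval, described below. Whether background signal at 2.5 h limits these half-lives was not tested.

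Regulators of other signalling pathways included a few deep falls among many small ones. Nfkbia, the IkB-alpha inhibitor of NF-kB, had 7.33, 7.52 and 7.38 at 2.5 h and 9.60, 9.59 and 9.27 at 0 h (−2.08 ± 0.07), and the ubiquitin-editing inhibitor Tnfaip3 fell by 1.84. These 2 stood out in a list of 9 tested NF-kB genes, of which 4 fell (44.4%) and 0 rose, with a median of −0.22. In the TGF-beta and BMP list 8 of 16 fell (50%) and 1 rose (6.25%), with a median of −0.18. Id2, which binds and inactivates basic helix-loop-helix factors such as MyoD, had 10.03, 10.20 and 9.20 at 2.5 h and 12.18, 12.16 and 11.70 at 0 h (−2.20 ± 0.10). Id1 (−1.57), Tgif1 (−1.09) and the inhibitory Smad7 (−0.75) fell too.

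For Notch, 8 of 11 fell and 1 rose (median −0.44). The target gene Hes1, a repressor with a short-lived mRNA, had 6.84, 6.62 and 6.73 at 2.5 h and 9.29, 9.29 and 8.96 at 0 h, a loss of at least 5.47-fold. Falls of the ligand and the receptors were small, at −0.45 for Jag1, −0.56 for Notch1 and −0.37 for Notch2, and Lfng, which modifies the receptors, fell by 1.02. In the Wnt list 12 of 19 fell and 0 rose (median −0.22), led by the receptor Fzd7 (−0.98) and the scaffold Axin1 (−0.89). Among 17 YAP targets and partners 8 fell (47.1%) and 3 rose (17.6%), with a median of −0.11. F3, the clotting initiator tissue factor, fell by 1.62 and the LIM protein gene Ajuba by 1.34. Ccn1 and Ccn2 are not in this list and were counted with the growth factors and matricellular proteins described next.

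Of 19 tested genes listed as growth factors, cytokines, chemokines and matricellular proteins, 14 fell, 5 were not called and 0 rose (median −0.55). Ccn1, a matrix-bound growth regulator, had 8.86, 8.45 and 9.61 at 2.5 h and 11.80, 11.19 and 11.97 at 0 h (−2.68 ± 0.13). Its relative Ccn2 fell by 1.01, the angiogenic factor Vegfa by 0.85, the chemokine Ccl2 by 0.81 and Hbegf, an EGF receptor ligand, by 0.68. Ptgs2, the inducible cyclooxygenase, fell by 0.57 ± 0.05, but its level differed between siRNAs by more than that: it was 10.60, 11.30 and 12.13 at 2.5 h and 11.27, 11.85 and 12.63 at 0 h, so the groups overlapped.

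In the p53 and apoptosis list 14 of 19 fell and 0 rose, with a median of −0.65. Plk2, a kinase induced by p53, had 8.01, 8.07 and 8.66 at 2.5 h and 10.27, 10.06 and 10.71 at 0 h (−2.10 ± 0.15). Ppm1d, the phosphatase that switches the p53 response off, had 9.06, 9.12 and 9.13 at 2.5 h and 10.91, 10.86 and 10.90 at 0 h (−1.79 ± 0.04). The 3 arrays of each time agree closely for this gene. Gadd45g fell by 1.78 (a lower bound), Sesn2 by 1.11, Gadd45a by 1.04, the survival factor Mcl1 by 0.96, Btg2 by 0.83, the p53 ligase Mdm2 by 0.56 and Gadd45b by 0.52. Cdkn1a had no probe set with that symbol alone.

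Of the clock genes 6 of 11 fell and 0 rose (median −0.44). The repressor Bhlhe40 had 7.89, 7.90 and 8.39 at 2.5 h and 9.93, 9.70 and 10.78 at 0 h (−2.08 ± 0.12). Bhlhe41 (−1.20), the nuclear receptor Nr1d1 (−1.19) and Per1 (−0.88) fell less.

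Dusp1, Plk2 and Ppm1d, from the lists above, carry the full cAMP response element TGACGTCA, the palindromic site of CREB, in the window before the start, and are printed to show where it lies. Each line is 150 bases upstream of the RefSeq start (GRCm38.p6), on the strand of the gene, with the element in capitals. The positions are chr17:26508473-26508622 (minus strand) for Dusp1, chr13:110394894-110395043 (plus strand) for Plk2 and chr11:85311104-85311253 (plus strand) for Ppm1d. The first base of the element lies 143, 62 and 85 bases before the start in this order.
Dusp1: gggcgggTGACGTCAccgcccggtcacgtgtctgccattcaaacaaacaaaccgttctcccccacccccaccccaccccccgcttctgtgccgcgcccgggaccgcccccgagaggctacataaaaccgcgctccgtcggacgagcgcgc
Plk2: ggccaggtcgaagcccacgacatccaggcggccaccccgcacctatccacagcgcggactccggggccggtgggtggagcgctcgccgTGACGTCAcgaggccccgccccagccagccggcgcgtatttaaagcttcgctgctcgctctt
Ppm1d: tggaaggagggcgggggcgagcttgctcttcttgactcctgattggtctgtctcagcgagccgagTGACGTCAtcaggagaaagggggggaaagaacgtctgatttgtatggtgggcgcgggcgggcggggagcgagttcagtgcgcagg

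Among the 144 genes with a fall of more than 1 and a single annotated start, 7 had the element within 250 bases (4.86%), against 2.92% of all 6364. The other 4 were Topors (−1.38), Irf2bpl (−1.33), Tbcc (−1.05) and Flcn (−1.02). Of the other motifs searched on both strands, CCAAT was found in 47.9% of the 144 and 37.2% of all, TATAAA in 10.4% and 6.03%, the CArG box of SRF in 2.08% and 1.23%, and the AP-1 site (TGACTCA or TGAGTCA) in 1.39% and 2.64%. Without histones 133 of these genes were left. Among them CCAAT was found in 45.1%, TATAAA in 7.52%, the CArG box in 1.5%, the AP-1 site in 1.5% and TGACGTCA in 5.26%. No 2 of the matches shown in capitals overlap.

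Most of the 234 large falls, 154 genes, lay outside all lists, and they held further regulators. Sgk1, a kinase induced by serum and glucocorticoids, had 7.28, 7.46 and 7.53 at 2.5 h and 9.95, 10.04 and 9.57 at 0 h (−2.43 ± 0.10). Ppp1r10, a nuclear subunit of protein phosphatase 1, had 8.51, 8.46 and 9.01 at 2.5 h and 11.07, 10.94 and 11.18 at 0 h (−2.41 ± 0.10). Trim13, a ubiquitin ligase, had 7.52, 7.63 and 7.77 at 2.5 h and 9.88, 9.93 and 10.08 at 0 h (−2.33 ± 0.12). All 3 were more than 5-fold lower at 2.5 h, with no overlap of the groups.

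Further examples, picked after their values were seen, were Fbxo5 (−2.08), an inhibitor of the anaphase-promoting complex, the mTOR inhibitor Ddit4 (−1.96), the interferon factor Irf1 (−1.81, a lower bound), Usp42 (−1.79), Rhob (−1.75) and Txnip (−1.74), which binds thioredoxin. Chac1 (−1.64), Tiparp (−1.64), Trib1 (−1.59), the transcriptional coactivator gene Cited2 (−1.62), Stil (−1.51), Bcl6 (−1.47), Arrdc3 (−1.27, a lower bound), Wee1 (−1.26), E2f3 (−1.26), the hyaluronan synthase Has2 (−1.13), the cytokine inhibitor Socs3 (−1.14) and Xbp1 (−1.08) fell as well.

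The mRNAs of factors that carry out transcription and RNA decay changed unevenly. Of 29 genes of RNA polymerase II and elongation 11 fell (37.9%) and 2 rose (6.9%), with a median of −0.03. The falls were among elongation control genes, with Ell at −0.71, Hexim1 at −0.62, Brd2 at −0.57 and Cdk9 at −0.39, and the largest polymerase subunit Polr2a was at −0.17 ± 0.04 (adjusted p = 0.00946). Mepce (−1.49) and Hexim2 (−1.33, a lower bound), which act with the 7SK RNA that holds Cdk9 inactive, were not on that list and fell by more than 1. Of 29 decay factors 12 fell (41.4%), 2 rose (6.9%) and 15 were not called, with a median of −0.05. Some adaptors of deadenylation and decapping fell: Btg1 by 1.23, Dcp1a by 1.04, Zfp36l2 by 0.97, Edc3 by 0.83, Zfp36l1 by 0.78 and Tob1 by 0.55. Tut1, a terminal uridylyltransferase, fell by 1.36. Parn, a deadenylase, rose (0.24 ± 0.05, adjusted p = 0.00438), a call lost with equal ribosomal protein medians (0.13), and Elavl1, which stabilises AU-rich mRNAs, was at 0.07 ± 0.04 (adjusted p = 0.162; −0.05 with equal ribosomal protein medians).

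Btg1 fell evenly, with 11.46, 11.46 and 11.52 at 2.5 h and 12.67, 12.70 and 12.74 at 0 h. Its change was −1.23 ± 0.07, and 42.8% of the 0 h level was left. The 3 losses were nearly the same, with a range of 0.033 over the siRNAs.

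Among 37 chromatin modifiers 24 fell and 2 rose (median −0.32). Kdm5b, an H3K4 demethylase, had 7.38, 7.35 and 7.91 at 2.5 h and 8.41, 8.80 and 9.25 at 0 h (−1.27 ± 0.12). Tet3 (−0.91), Kdm6b (−0.90) and Setd2 (−0.81) fell less, and Hdac1 rose by 0.17, a call lost with equal ribosomal protein medians (0.06). The Zfp genes, most of them zinc finger transcription factors, were the broadest group. Of 154 tested, 115 fell and 3 rose, with a median of −0.43, and 18 fell by more than 1, led by Zfp51 (−1.99, a lower bound) and Zfp719 (−1.63).

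Among 19 cyclins and CDK regulators 7 fell (36.8%) and 3 rose (15.8%), with a median of −0.08. Ccnf fell by 1.34, while Ccnd1, the cyclin D of proliferating myoblasts, was at 12.94, 12.94 and 12.71 at 2.5 h and 12.93, 12.92 and 12.67 at 0 h (0.02 ± 0.03, adjusted p = 0.572, and −0.09 with equal ribosomal protein medians). The cyclin L pair split. Ccnl1 fell by 0.98, and Ccnl2 rose by 0.44 ± 0.06, with 9.07, 9.07 and 9.13 at 2.5 h and 8.68, 8.59 and 8.69 at 0 h. Both code for cyclins of kinases that act in splicing.

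Of 28 splicing kinases and SR-type proteins 6 fell (21.4%) and 7 rose (25%), shares near the 24.2% and 23.1% of all genes. The median was 0.01, and with equal ribosomal protein medians it was −0.10, with 8 lower and 2 higher. Clk1, a kinase of SR proteins, had 8.14, 8.02 and 8.25 at 2.5 h and 9.23, 9.22 and 8.95 at 0 h (−0.99 ± 0.12), and Dyrk1a (−0.81) and Clk4 (−0.49) fell. Rsrp1, an arginine- and serine-rich protein gene, had 9.77, 9.82 and 10.17 at 2.5 h and 8.93, 8.98 and 9.47 at 0 h (0.80 ± 0.05, adjusted p = 1.29e-05). Pnisr, another of this class, rose by 0.42 ± 0.11, unevenly under the 3 siRNAs.

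Some regulators of the myogenic state fell. Of 16 myogenic genes 7 fell (43.8%), 9 were not called and 0 rose (median −0.07). Myf5, a myogenic factor of undifferentiated myoblasts, had 9.51, 9.35 and 9.53 at 2.5 h and 10.27, 10.01 and 10.20 at 0 h (−0.69 ± 0.04, adjusted p = 8.74e-06). Myod1 fell by 0.42 ± 0.05, the homeobox gene Six4 by 0.94, its cofactor Eya1 by 0.39 and Mef2d by 0.38. Of 19 sarcomere genes 0 fell and 3 rose (15.8%), with a median of 0.07. That median turned to −0.05 with equal ribosomal protein medians, where 0 were higher and 1 lower. The rises of the troponin T gene Tnnt2 (0.18) and the tropomyosin gene Tpm2 (0.26) were not called there. Celf1 was at −0.12 ± 0.09 (adjusted p = 0.288) and Mbnl1 at −0.01 ± 0.09 (adjusted p = 0.927).

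The 4 largest rises were noncoding RNAs, namely Mir505, Scarna17, Malat1 and Lncpint. Of 13 tested long or structural noncoding RNAs 8 rose and 2 fell, with a median of 0.20. Malat1, a long RNA retained in nuclear speckles, had 12.05, 11.97 and 12.52 at 2.5 h and 10.90, 10.49 and 11.65 at 0 h (1.17 ± 0.14, adjusted p = 0.000386). It was 2.25-fold higher relative to the other transcripts. Lncpint had 8.23, 8.34 and 8.48 at 2.5 h and 7.20, 7.47 and 7.61 at 0 h (0.92 ± 0.08). Airn, the imprinted antisense RNA of the Igf2r region, rose by 0.58, Firre by 0.53, Pvt1 by 0.51 and Xist by 0.16. With equal ribosomal protein medians 5 of the list were called higher and 2 lower, and the call of Xist was lost (0.05). Gas5 (−0.39) and Snhg5 (−0.74), both hosts of small nucleolar RNAs whose spliced forms are degraded on ribosomes, fell.

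Of 22 tested small nucleolar and Cajal body RNAs 3 rose (13.6%, against 23.1% of all genes) and 7 fell (31.8%, against 24.2%), with a median of −0.05. Scarna17, a guide RNA of Cajal bodies, had 10.87, 10.92 and 10.76 at 2.5 h and 9.60, 9.64 and 9.78 at 0 h (1.18 ± 0.07, adjusted p = 6.81e-06), and Scarna13 (0.49) and Snord57 (0.43) rose. The groups of Snord57 overlapped, with changes of 0.84, 0.14 and 0.29 under the 3 siRNAs. Snora3 fell by 0.85 (a lower bound). The median of this list was −0.05 under Cugbp1 siRNA, −0.22 under Mbnl1 siRNA and 0.13 under control siRNA.

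MicroRNA loci rose in 15 of 34 tested cases (44.1%, against 23.1% of all genes) and fell in 0, with a median of 0.14. With equal ribosomal protein medians 2 were called higher and 2 lower. Most of the 296 on the array were too dim to test. These probe sets can read primary transcripts, precursors or host genes, and which of them gave the signal was not tested. Mir505 had 8.80, 8.79 and 8.25 at 2.5 h and 7.23, 7.53 and 7.22 at 0 h, a rise of at least 2.43-fold (1.28 ± 0.09, adjusted p = 1.51e-05). The others were small. Mir680-3 rose by 0.40. Mirlet7e rose by at least 0.28 and Mir99b by 0.18, from loci that neighbour each other on chromosome 17, and Mir181c rose by 0.21 and Mir181d by 0.18, neighbours on chromosome 8. The groups overlapped for Mirlet7e and Mir181d, and with equal ribosomal protein medians none of Mirlet7e, Mir99b, Mir181c and Mir181d was called.

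One mature RNA each of Mir505 and these 4 loci is shown from RefSeq (GRCm38.p6), the 3p arm of Mir505 and the 5p arm of the others, with the seed, bases 2 to 8, in capitals. The 5p arms of Mir181c and Mir181d share a seed and are shown for that, while their 3p arms have different ones.
mmu-miR-505-3p: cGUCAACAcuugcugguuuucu
mmu-let-7e-5p: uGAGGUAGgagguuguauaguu
mmu-miR-99b-5p: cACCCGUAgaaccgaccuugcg
mmu-miR-181c-5p: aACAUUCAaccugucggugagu
mmu-miR-181d-5p: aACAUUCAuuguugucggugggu

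The remaining largest rises were B930095G15Rik (0.82), Ifnz (0.75), Gm7265 (0.73), Hoxc5 (0.65), Cep295nl (0.65), 1700054O19Rik (0.61) and Gm10589 (0.61). Gm7265, Hoxc5, Cep295nl, Gm10589 and Mir505 had a 0 h mean under the filter value, so their changes are lower bounds. The sodium/proton exchanger Slc9a5 rose by 0.48.

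Among mRNAs of the basic machinery, the respiratory chain had the largest share of rises, all of them small. Of 75 respiratory chain genes 48 rose (64%, against 23.1% of all tested genes) and 0 fell, with a median of 0.15 and values from 0.02 to 0.39. Atp5k, a subunit of ATP synthase, had 8.78, 8.72 and 8.93 at 2.5 h and 8.43, 8.35 and 8.48 at 0 h (0.39 ± 0.06, adjusted p = 0.00144), and the complex I subunit Ndufa3 rose by 0.38. With equal ribosomal protein medians 7 of the 75 were still called higher and 0 lower, at a median of 0.03.

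Of 53 cytosolic ribosomal protein genes 21 rose (39.6%, against 23.1% of all genes) and 1 fell (median 0.11). When their own median sets the scale, the median change was −0.01, with 1 called higher and 1 lower. Rps3a1 had 11.12, 11.07 and 11.09 at 2.5 h and 10.84, 10.64 and 10.56 at 0 h (0.42 ± 0.06). The probe set named Rpl12 was the single fall, at −1.75 ± 0.13, a lower bound on the loss. Its log2 levels were 6.58, 6.97 and 6.99 at 2.5 h and 8.73, 8.48 and 8.58 at 0 h, against array medians of the ribosomal protein genes of 12.49 to 12.56 at 2.5 h and 12.38 to 12.46 at 0 h. Whether that probe set reads the main Rpl12 mRNA was not tested.

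Other lists had shares of rises between 16.7% and 28%, around the 23.1% of all genes, with medians between 0.03 and 0.07, and their rises were mostly not called with equal ribosomal protein medians. Of 75 mitochondrial ribosomal protein genes 18 rose (24%) and 9 fell (median 0.06), against 1 higher and 17 lower under that scaling, with Mrps30 at −0.46 and Mrps31 at −0.37. Among 36 proteasome genes 8 rose (22.2%) and 1 fell (median 0.07), against 0 higher and 2 lower under that scaling, where neither Psmb1 (0.23) nor Psma4 (0.20) kept its call. Of 25 matrix and cytoskeleton genes 7 rose (28%) and 1 fell (median 0.03), against 0 higher and 1 lower, with Col4a1 at 0.17 and Lamb1 at −0.26. Among 12 glycolysis genes 2 rose (16.7%) and 1 fell (median 0.07), against 0 higher and 1 lower, with Hk1 at 0.13 and Hk2, the inducible hexokinase, at −0.36. Among 161 Slc transporters 31 rose (19.3%) and 23 fell (14.3%, against 24.2% of all genes) at a median of 0.05, and with equal ribosomal protein medians 1 was higher and 37 lower, with Slc35c1 at −0.87 and Slc38a2 at −0.68. The medians of these 5 lists turned negative, from −0.09 to −0.04, with equal ribosomal protein medians. Actb, a cytoskeletal mRNA, was at 14.32, 14.31 and 14.31 at 2.5 h and 14.31, 14.28 and 14.29 at 0 h (0.02 ± 0.03, adjusted p = 0.562; −0.09 with equal ribosomal protein medians).

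**Figure D3:**
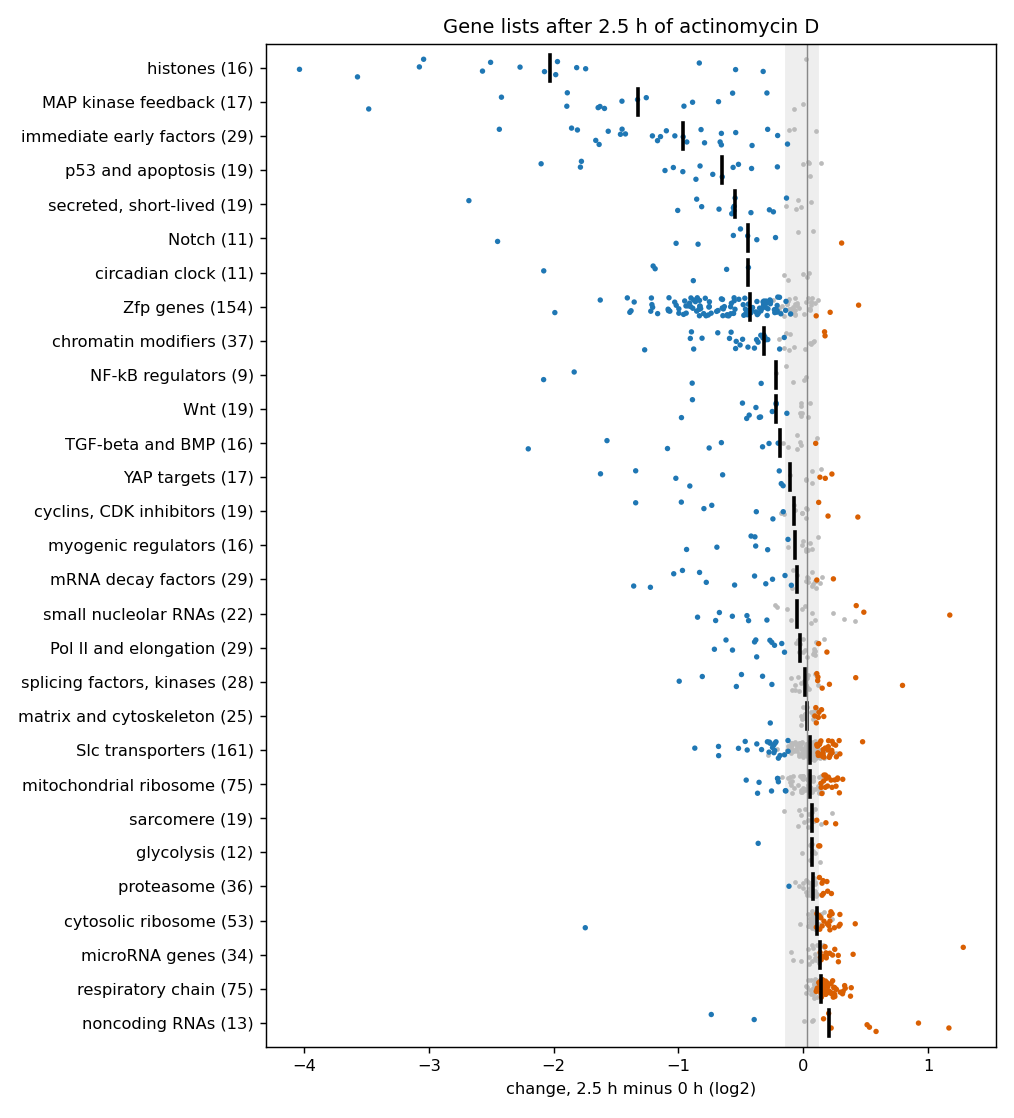
Change from 0 h to 2.5 h (x, log2, 2.5 h minus 0 h) of every tested gene in 29 lists, with the number tested in brackets; blue and orange points were called lower and higher, grey were not called, and black bars are list medians. The grey band spans the interquartile range of all tested genes, and list medians run from −2.03 for histones to 0.20 for noncoding RNAs. The list labelled secreted, short-lived holds growth factors, cytokines, chemokines and matricellular proteins.

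Markers of other cell types that passed the filter moved in both directions: Sox9 fell by 0.88, Twist2 by 0.29 and Pparg by 0.18, and Cd68 rose by 0.22, Col2a1 by 0.13 and Sost by 0.11. The calls of Cd68, Col2a1 and Sost were lost with equal ribosomal protein medians. Sox9, a short-lived transcription factor mRNA in other settings, was at 10.50, 10.49 and 10.59 at 2.5 h and 11.45, 11.29 and 11.47 at 0 h. Their part in the results was not tested.

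The 3 siRNAs gave losses of similar depth, with a slight ordering among the largest. There is 1 array per siRNA and time, so differences between siRNAs have no replicate and no test. Over the 234 large falls the median change was −1.26 under Cugbp1 siRNA, −1.26 under Mbnl1 siRNA and −1.31 under control siRNA. Falls of more than 1 numbered 224 under Cugbp1 siRNA, 231 under Mbnl1 siRNA and 269 under control siRNA. The fall was smallest under Mbnl1 siRNA in 122 of the 234, under Cugbp1 siRNA in 75 and under control siRNA in 37. In 13 of the 15 largest falls the loss was smallest under Mbnl1 siRNA. The range over the 3 siRNAs had a median of 0.25 in the 234 genes and 0.13 in all genes.

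Among histones the median change was −2.51 under Cugbp1 siRNA, −1.74 under Mbnl1 siRNA and −2.07 under control siRNA. The fall was largest under Cugbp1 siRNA in 10 of the 15 called histones and smallest under Mbnl1 siRNA in 11. Levels at 0 h also differed. In H2bc3, H1f5, H2ac15, H2bc14, H4c6, H2bc18 and H2bc9 the 0 h level was lowest under Mbnl1 siRNA. For H2bc3 it was 10.40 there and 11.17 under control siRNA. In H1f2 and H2ac1 the 0 h level was highest under Mbnl1 siRNA. What part the 0 h level has in the size of a fall was not tested. H4c4 had the widest range of any large fall, with changes of −2.63 under Cugbp1 siRNA, −1.71 under Mbnl1 siRNA and −1.61 under control siRNA. For H4c14 they were −2.55, −1.76 and −1.91 in the same order.

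Outside the histones the widest ranges were found for Fbxo32, Rhob and Tbx15. Fbxo32, a muscle ubiquitin ligase also called atrogin-1, changed by −1.06 under Cugbp1 siRNA, −1.76 under Mbnl1 siRNA and −0.87 under control siRNA. Its level at 0 h was 9.68 under Mbnl1 siRNA and 8.26 under control siRNA. Rhob, a small GTPase gene, changed by −1.77 under Cugbp1 siRNA, −1.31 under Mbnl1 siRNA and −2.17 under control siRNA. Tbx15 changed by −1.11, −1.85 and −1.15 in that order. Its level under Mbnl1 siRNA was 7.04 at 2.5 h and 8.89 at 0 h, and under control siRNA 8.84 and 9.99.

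**Figure D4:**
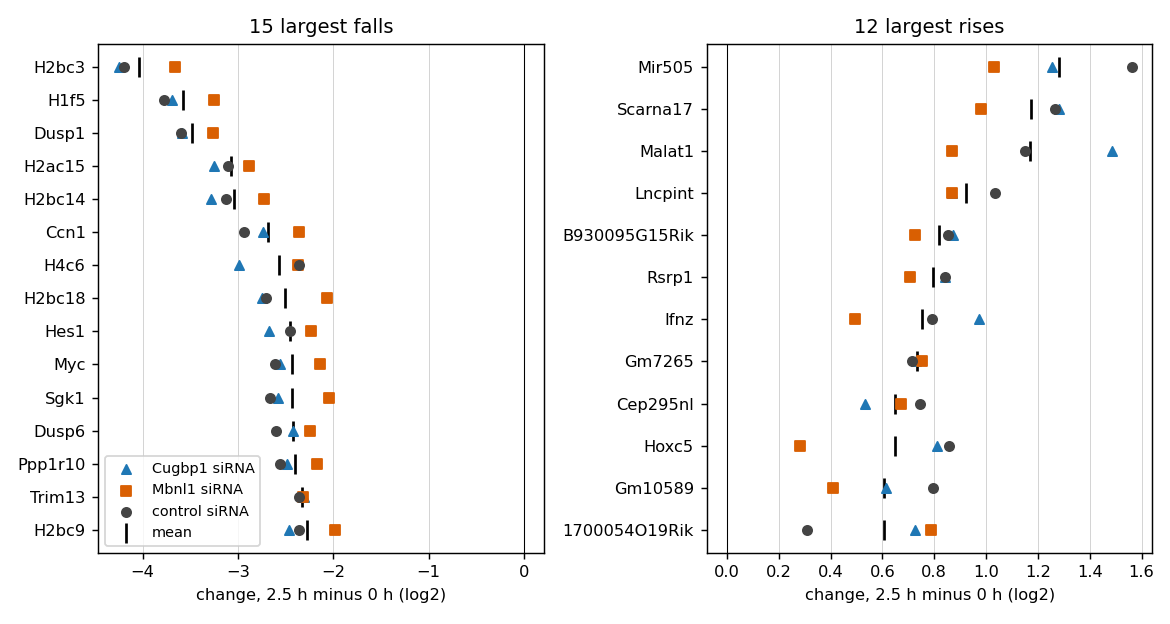
Change from 0 h to 2.5 h (x, log2, 2.5 h minus 0 h) under each siRNA for the 15 largest falls (left) and 12 largest rises (right), with the mean as a bar; each point is 1 pair of arrays. Genes were chosen to have all points on 1 side of 0. The square for Mbnl1 siRNA is nearest to 0 in 13 of the 15 falls and 9 of the 12 rises.

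What the early fallers did next was read from the 3 arrays at 5 h. The second interval, 5 h minus 2.5 h, shares the 2.5 h arrays with the first, so an error in those arrays enters the 2 changes with opposite sign. In the second interval 1672 genes (17%) were lower and 441 (4.47%) higher. Of the 234 genes with a large first fall, 110 were lower again, 119 were not called and 5 were higher, and their median change was −1.26 in the first interval and −0.22 in the second. The difference between the intervals, tested directly, was called positive in 463 of all genes (4.69%) and in 213 of the 234, and negative in 54 of all genes (0.547%) and in 0 of the 234. The 234 were chosen for a large first fall, which favours a positive difference, so their count is a description. The 2157 smaller called falls had medians of −0.34 and −0.22, and 1253 of them were lower again. Of the 234 genes, 34 had a 2.5 h mean under the filter value, and what part a dim signal has in their second change was not tested.

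At least 3 courses could be seen among named genes. The signal of Dusp1 did not fall further after 2.5 h. Its mean log2 level was 11.70 at 0 h, 8.22 at 2.5 h and 8.25 at 5 h. The second change was 0.03 ± 0.08 (adjusted p = 0.767). These levels lay above the filter value, which is not a detection limit, and what part background signal has in them was not tested. H1f5 (0.01), Myc (0.07), Sgk1 (−0.06) and Ppp1r10 (−0.05) likewise had second changes within 0.1 of 0 that were not called. Other genes kept falling. Cited2 reached 9.22 at 5 h, with changes of −1.62 and −1.17, and Id2 changed by −2.20 and −0.89, Rhob by −1.75 and −0.83, and Wee1 by −1.26 and −0.77. Cdc42ep2 (−1.26 and −1.01), Cdc42ep3 (−1.22 and −0.90), Xbp1 (−1.08 and −0.81) and Btg1 (−1.23 and −0.66) were of this kind, and each second fall was called.

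Myf5 and Myod1 fell at an even pace, by 0.69 and 0.60 for Myf5 and by 0.42 and 0.43 for Myod1, and the difference between intervals was not called for either (adjusted p = 0.579 and 0.967). The third course was a partial return of the signal. Egr1 was at 9.06 at 0 h, 7.43 at 2.5 h and 7.98 at 5 h, a second change of 0.56 ± 0.07 (adjusted p = 0.00106) with all 3 siRNAs higher at 5 h than at 2.5 h. Jun (0.29), Csrnp1 (0.28), Gadd45g (0.27) and Zfp217 (0.26) were the other 4 large falls called higher in the second interval. At 2.5 h Gadd45g (7.35) and Zfp217 (7.33) had means under the filter value, and Csrnp1 (7.42) and Egr1 just above it. Calls of this direction depend on the scale: 441 genes were higher in the second interval, and 7 with equal ribosomal protein medians.

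Of the 2283 genes higher at 2.5 h, 302 were higher again and 17 were lower. Malat1 (0.04) and Lncpint (0.01) had second changes near 0, Mir505 (−0.16) and Ifnz (−0.18) had small ones that were not called, and Scarna17 rose again by 0.27 ± 0.07. Airn was at 7.77, 8.36 and 7.92 at 0, 2.5 and 5 h, rising by 0.58 and then falling by 0.44 ± 0.10 (adjusted p = 0.0181), and Gm7265 fell back by 0.39. Of the 5190 genes not called at 2.5 h, 292 were lower and 131 higher in the second interval.

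**Figure D5:**
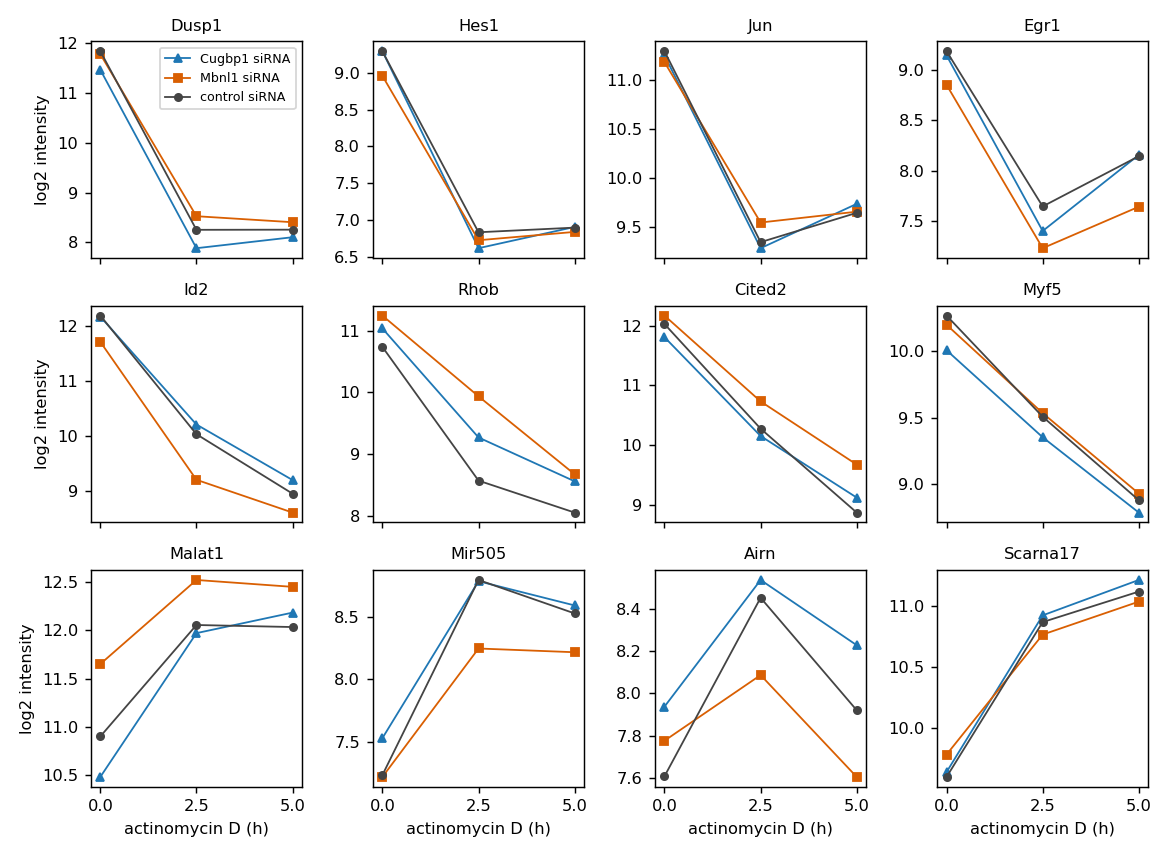
Log2 RMA intensity (y, own scale for each gene) at 0, 2.5 and 5 h of actinomycin D (x) for 12 genes, 1 line per siRNA. The top row drops by 2.5 h and then levels or turns up, the middle row keeps falling, and in the bottom row Malat1 and Mir505 level off, Airn turns down and Scarna17 rises further.

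Probe sets without a single gene symbol were tested apart. Of 3974, 323 (8.13%) were lower and 770 (19.4%) higher at 2.5 h.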

How the data were processed

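Total RNA of C2C12 cells, 100 ng per array, was measured on 9 Affymetrix whole-transcript arrays, 1 for each siRNA and time. Per the submitters' processing notes, values came from RMA in Affymetrix Expression Console. The deposited values are linear RMA intensities for 35556 probe sets, a scale read from their range, and log2 was taken here of the deposited intensity. Gene symbols came from the platform annotation: 21789 probe sets had 1 symbol, 1621 several and 12146 none. The brightest probe set stood for a gene, and genes with a mean log2 under 7.385 (the 50th percentile of named probe sets, an intensity of 167.1) were left out, which kept 9864. limma 3.58.1 in R 4.3.3 was fitted to all 9 arrays with time and siRNA as factors, so siRNA is the block that pairs the times. The fit had 4 residual degrees of freedom, and p-values were adjusted by Benjamini-Hochberg over all tested genes. In simulated data the fit recovered 92 of 100 genes changed by 0.5 and 40 of 100 changed by 0.25 (log2). The simulation held 9864 genes in all, and 6 unchanged ones were called. Its noise was independent between arrays, and no siRNA effect was simulated. Far fewer genes changed in it than were called in the data, so these rates need not hold there.

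The members and gene lists were chosen with earlier results of these data known. Named genes were the 15 largest falls and 12 largest rises with 1 sign under all siRNAs, the 2 largest called changes of each list, the 5 widest ranges over siRNAs among falls over 1, the 6 most positive and 6 most negative differences between intervals, and a set of genes always named. Further genes were added after their values were seen.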

Additional observations from a re-analysis of the deposited data

Results flagged for a closer look

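For 3 named genes the siRNAs moved in opposite directions over the first 2.5 h. The difference between siRNAs was not tested, since there is 1 array per siRNA and time. The range over the 3 siRNAs was 0.484 (log2) for Celf1, 0.280 for Mbnl1 and 0.114 for H2bc4. None of the 3 was called as changed on average.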

How the results depend on the processing

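Falls were steadier than rises. Under equal ribosomal protein medians 147 genes were called higher at 2.5 h, and with time only and no replicate block 128 were higher and 1043 lower. Leaving out 1 array gave 1228 to 2358 higher and 1900 to 2498 lower, and 209 to 253 falls of more than 1. The higher count moved by over 1.5 times without the 2.5 h array of Cugbp1 siRNA (1228), of Mbnl1 siRNA (1498) or of control siRNA (1290), and the cause was not tested.

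In the second interval the higher count was 89 with no filter, 223 with a filter at the 25th percentile, 7 with equal ribosomal protein medians, 689 with trend and robust eBayes, 0 with no replicate block and 85 to 482 with 1 array left out. The lower count was 1052 with no filter, 3120 with equal ribosomal protein medians, 252 with no replicate block and 934 to 1846 with 1 array left out. The difference between intervals was positive in 114 genes with no replicate block and in 238 to 499 with 1 array left out. It was negative in 30 with no filter, 25 with equal ribosomal protein medians, 82 with trend and robust eBayes, 4 with no replicate block and 7 to 72 with 1 array left out. Unnamed probe sets called higher at 2.5 h numbered 265 with the 6 arrays alone, 268 with no filter, 135 with equal ribosomal protein medians, 203 with no replicate block and 183 to 655 with 1 array left out. Those called lower numbered 173 with no replicate block and 198 to 304 with 1 array left out.

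Equal ribosomal protein medians turned the sign of Actb (−0.089), Ccnd1 (−0.090), Elavl1 (−0.046) and H2bc4 (−0.090), and of the medians of sarcomere (−0.045), splicing (−0.099), glycolysis (−0.042), matrix and cytoskeleton (−0.086), leukocyte marker (−0.091), ribosomal (−0.006), mitochondrial ribosomal (−0.058), proteasome (−0.038) and Slc (−0.060) genes. Of the named genes, 16 rises lost their call there (Cd68, Col2a1, Col4a1, Hdac1, Hk1, Mir181c, Mir181d, Mir483, Mir99b, Mirlet7e, Parn, Psma4, Psmb1, Tnnt2, Tpm2 and Xist), as did Sost, and 1 gene, Srf, gained one. With no filter the medians of adipocyte (0.004) and fibroblast (0.056) markers turned. With 1 array left out, Celf1 ranged from −0.239 to 0.010 and H2bc4 from −0.027 to 0.057, both turning sign without the 0 h array of Cugbp1 siRNA, and Mbnl1 ranged from −0.089 to 0.118, turning without the 0 h array of Mbnl1 siRNA. With no replicate block 51 named genes lost their call. Dim signals limit how far a fall can be followed.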
